A study of Mus musculus with 30 samples.

Results

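Fragments of 6 mitochondrial mRNAs were followed in small RNA libraries of the mouse prefrontal cortex: mt-Co1, mt-Co2 and mt-Co3, which encode core subunits of cytochrome c oxidase (complex IV), mt-Atp6 and mt-Atp8, which encode membrane subunits of ATP synthase, and mt-Cytb, which encodes cytochrome b of complex III. A deposited sequence of 20 to 45 nt was counted as a member when all of it matched a transcript of these genes exactly and in sense, and no mitochondrial tRNA or rRNA. The rule found 60832 distinct fragments, with 2663267 reads in PANDORA-seq and 621268 reads in traditional-seq, and it gave 6 of the 166513 genes or gene sets with a matched read. The members made up 0.1995% ± 0.0877 (SD, n = 16) of all reads of a PANDORA-seq library and 0.363% ± 0.231 (SD, n = 14) of all reads of a traditional-seq library. This order depended on the denominator and on the sequences counted. Of the reads that matched a transcript the members were 0.776% and 0.777%. Without sequences that also match a nuclear transcript they were 0.0750% and 0.04999% of all reads, which turns the order. That setting leaves out every mt-Co2 read and nearly all reads of mt-Co3 and mt-Atp6, so it compares a smaller set of genes.

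The study compared hemizygous 5xFAD mice, called AD, which carry human APP (amyloid precursor protein) and presenilin transgenes with mutations under the neuronal Thy1 promoter, with wild-type (WT) littermates on a C57BL6/J background at 6 months of age, with mice of both sexes. Small RNA cut from a gel at 15 to 50 nt was sequenced by traditional-seq, in which adapters are joined to the RNA as it is (7 WT and 7 AD libraries), or by PANDORA-seq (8 WT and 8 AD libraries). In PANDORA-seq the RNA was first treated with T4 polynucleotide kinase (T4PNK), to repair ends that adapters cannot join, and with AlkB, to take off methyl groups at which the reverse transcriptase stops. The labels number the libraries within each group and do not say which libraries share a mouse, so p-values measure the spread between libraries.

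PANDORA-seq libraries held 54926347 to 105876141 reads and traditional-seq libraries 9370669 to 17053412, of which 48361 to 382086 and 13700 to 106945 were member fragments. Levels are given in RPM, the reads of an item per 1000000 reads of the library. All neuron, astrocyte, oligodendrocyte and microglia markers of the lists had reads in all 4 groups. Of 4 genes listed as not typical of brain, Ins2 had no read. The summed level of the others was 157 RPM ± 94.0 in WT and 144 RPM ± 117 in AD PANDORA-seq (SD, n = 8 each), mostly from Alb. In traditional-seq it was 2.19 RPM ± 2.57 in WT and 0.913 RPM ± 0.383 in AD (SD, n = 7 each). The highest RPM of all 6 genes in PANDORA-seq came from AD replicate 7, and in traditional-seq from WT replicate 5. Within AD traditional-seq replicate 7 was highest for 5 of the genes and replicate 3 for mt-Atp6.

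Mitochondrial DNA is transcribed into long RNAs that hold many genes, and the tRNAs that lie between most of the mRNAs are cut out, which frees the mRNAs at both ends. mt-Atp8 and mt-Atp6 overlap and share a single mRNA, and mt-Atp6 runs directly into mt-Co3 with no tRNA between them. Neurons depend strongly on the respiratory chain and ATP synthase, to which these genes contribute.

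The 6 genes lie on the same strand of the mitochondrial chromosome. On GRCm38 (chrM, plus strand) mt-Co1 spans chrM:5328-6872, mt-Co2 chrM:7013-7696, mt-Atp8 chrM:7766-7969, mt-Atp6 chrM:7927-8607, mt-Co3 chrM:8607-9390 and mt-Cytb chrM:14145-15288. Each is a single exon. Positions in the text count from 1 at the first base of the transcript.

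The most abundant fragment of each gene in PANDORA-seq is shown because all 6 share the same kind of ends. It was chosen by the mean RPM of 16 libraries. Without AD replicate 7, the library with the highest member level, the mean led to the same 6 fragments, while by the median 4 of the 6 stayed and mt-Co3 (bases 167 to 201) and mt-Atp8 (bases 142 to 181) had leading fragments that began after C or A and were followed by C (both choices made after the data were seen). Capitals mark the fragment, and the 6 lower-case bases on either side are the transcript around it.
mt-Co1 bases 222 to 253, chrM:5549-5580: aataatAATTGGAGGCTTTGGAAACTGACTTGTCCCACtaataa
mt-Co2 bases 573 to 605, chrM:7585-7617: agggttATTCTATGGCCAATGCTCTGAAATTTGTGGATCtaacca
mt-Co3 bases 722 to 754, chrM:9328-9360: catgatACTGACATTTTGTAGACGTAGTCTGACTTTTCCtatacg
mt-Atp6 bases 111 to 145, chrM:8037-8071: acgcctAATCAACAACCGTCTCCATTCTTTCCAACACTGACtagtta
mt-Atp8 bases 141 to 174, chrM:7906-7939: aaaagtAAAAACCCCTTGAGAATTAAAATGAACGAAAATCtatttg
mt-Cytb bases 274 to 304, chrM:14418-14448: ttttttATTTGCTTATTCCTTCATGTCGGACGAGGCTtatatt

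All 6 of these fragments began with A after a T in the transcript, and all 6 were followed by a T. The mt-Co1 fragment had 3.12 RPM in the lowest, 9.76 RPM in the median and 237 RPM in the highest PANDORA-seq library, the last being AD replicate 7, and 0.0255 RPM ± 0.0534 (SD, n = 14) in traditional-seq. The mt-Co2 fragment ran from 4.35 to 109 RPM in PANDORA-seq with a median of 11.8 RPM, against 0.0286 RPM ± 0.0597 (SD, n = 14) in traditional-seq. For both, the highest library stood far above the median of its protocol. The mt-Cytb fragment ran from 0.345 to 24.5 RPM in PANDORA-seq with a median of 1.76 RPM, and 0 of 14 traditional-seq libraries held a read of it, which allows up to 0.176 to 0.320 RPM, depending on the library. The fragments were chosen for their level in PANDORA-seq, so a higher level there is a description. By the RPM seen, every PANDORA-seq library lay above every traditional-seq library for 5 of the 6. The mt-Co3 fragment was the exception, with 0.862 to 43.1 RPM in PANDORA-seq and 0 to 1.52 RPM in traditional-seq. The mt-Atp8 fragment had 0.185 RPM in its lowest PANDORA-seq library, which is within what a count of 0 allows in traditional-seq.

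The most abundant fragment of each gene in traditional-seq, by the mean RPM of 14 libraries, is shown for comparison, marked in the same way. By the median 5 of the 6 stayed, and mt-Atp8 led with bases 1 to 30. By the mean without WT replicate 5 of traditional-seq 5 of the 6 stayed, and mt-Co3 led with bases 328 to 351. Both of these choices were made after the data were seen.
mt-Co1 bases 550 to 572, chrM:5877-5899: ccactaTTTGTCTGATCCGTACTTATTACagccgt
mt-Co2 bases 334 to 358, chrM:7346-7370: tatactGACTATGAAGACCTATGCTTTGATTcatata
mt-Co3 bases 254 to 283, chrM:8860-8889: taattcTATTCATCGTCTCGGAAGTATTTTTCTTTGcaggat
mt-Atp6 bases 487 to 518, chrM:8413-8444: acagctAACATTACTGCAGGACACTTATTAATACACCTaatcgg
mt-Atp8 bases 142 to 168, chrM:7907-7933: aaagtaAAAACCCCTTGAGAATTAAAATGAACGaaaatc
mt-Cytb bases 199 to 218, chrM:14343-14362: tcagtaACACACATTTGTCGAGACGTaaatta

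None of these was the fragment most abundant in the other protocol, and the 2 mt-Atp8 fragments lay over the same stretch with starts 1 base apart. The mt-Atp6 fragment was by far the most abundant, with 5.82 RPM in the lowest, 132 RPM in the median and 521 RPM in the highest traditional-seq library, and 0.0439 RPM ± 0.0418 (SD, n = 16) in PANDORA-seq. The mt-Co1 fragment ran from 4.35 to 67.2 RPM in traditional-seq with a median of 30.5 RPM, against 0.0970 RPM ± 0.0888 (SD, n = 16) in PANDORA-seq. These fragments were likewise chosen for their level in traditional-seq. For 5 of the 6 the libraries of the protocols did not overlap. The exception was mt-Atp8, with 0 to 9.10 RPM in traditional-seq and 0 to 0.104 RPM in PANDORA-seq.

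mt-Co1 had 425, 796 and 1271 RPM (lowest, median and highest) in WT PANDORA-seq and 419, 768 and 2475 RPM in AD PANDORA-seq. In traditional-seq mt-Co1 had 423, 947 and 2671 RPM in WT and 511, 1026 and 2268 RPM in AD. The 4 groups of mt-Co1 overlapped over most of their range, and the highest value of 3 of them came from a single library that lay far above the next.

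mt-Co2 had 269.8, 439.6 and 560.02 RPM in WT PANDORA-seq and 203.6, 350.5 and 885 RPM in AD PANDORA-seq, and 208, 413 and 1459 RPM in WT and 236, 543 and 1251 RPM in AD traditional-seq. mt-Co3 had 181, 295 and 401 RPM in WT PANDORA-seq and 90.1, 234 and 473 RPM in AD PANDORA-seq, and 198, 317 and 1123 RPM in WT and 205.2, 437 and 916 RPM in AD traditional-seq. The genotypes overlapped for both genes in both protocols, and in AD PANDORA-seq replicate 3 was the lowest library.

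mt-Atp6 had 85.1, 161 and 224 RPM in WT PANDORA-seq and 77.0, 124 and 316 RPM in AD PANDORA-seq, and 226, 585 and 3166 RPM in WT and 234, 1022 and 2381 RPM in AD traditional-seq. mt-Atp8, the lowest of the 6, had 12.2, 19.4 and 30.3 RPM in WT PANDORA-seq and 6.61, 18.6 and 35.9 RPM in AD PANDORA-seq, and 7.72, 31.4 and 105 RPM in WT and 18.5, 40.02 and 87.6 RPM in AD traditional-seq. The genotypes of both genes overlapped in both protocols. Fragments that lay wholly in the 43 bases shared by mt-Atp8 and mt-Atp6 cannot be given to either gene and had a mean of 0.264 RPM ± 0.210 (SD, n = 16) in PANDORA-seq and 0.690 RPM ± 0.591 (SD, n = 14) in traditional-seq.

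mt-Cytb had 95.6, 209.9 and 302 RPM in WT PANDORA-seq and 83.9, 165 and 449 RPM in AD PANDORA-seq, and 61.6, 141 and 488 RPM in WT and 92.4, 180 and 385 RPM in AD traditional-seq. Its groups overlapped as well. It differed from mt-Atp6, which encodes a subunit of another complex, in that its mean was close in the 2 protocols, at 211 RPM ± 94.4 (SD, n = 16) in PANDORA-seq and 189 RPM ± 120 (SD, n = 14) in traditional-seq.

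**Figure D1:**
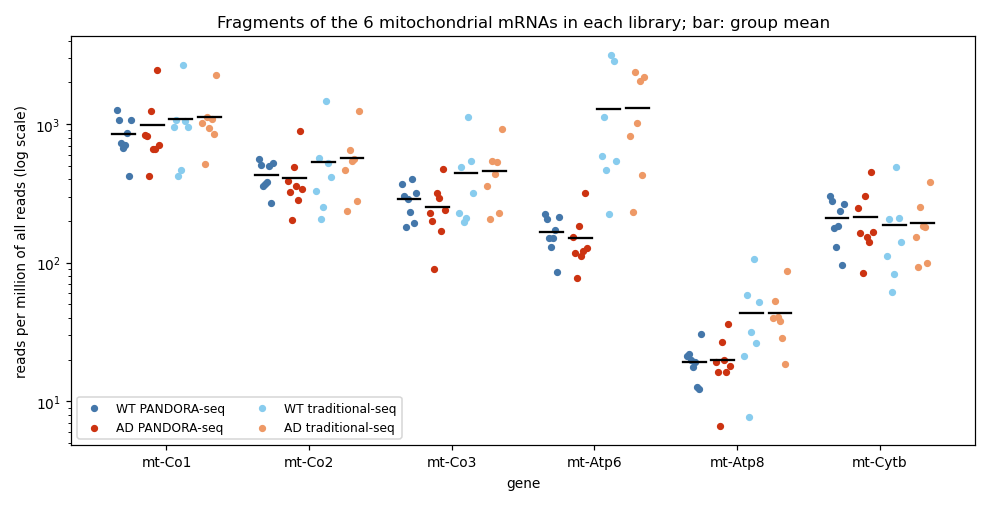
RPM of all reads of the library (log scale) for each of the 6 genes, with 1 point per library and a bar at the group mean, in 8 WT and 8 AD PANDORA-seq and 7 WT and 7 AD traditional-seq libraries. WT and AD overlap for every gene in both protocols, and mt-Atp6 in traditional-seq reaches 3166 RPM against at most 316 RPM in PANDORA-seq.

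Levels between genes were compared per kilobase of transcript. In PANDORA-seq the order was mt-Co2 with 615 ± 233, mt-Co1 with 592 ± 314, mt-Co3 with 343 ± 123, mt-Atp6 with 233 ± 88.6, mt-Cytb with 185 ± 82.5 and mt-Atp8 with 96.1 ± 34.4 RPM per kb (mean ± SD, n = 16). In traditional-seq it was mt-Atp6 with 1901 ± 1504, mt-Co2 with 808 ± 541, mt-Co1 with 712 ± 409, mt-Co3 with 577 ± 354, mt-Atp8 with 213 ± 131 and mt-Cytb with 166 ± 105 RPM per kb (mean ± SD, n = 14). Each pair of neighbours in either order differed by less than the sum of their SDs. The genes were measured in the same libraries, so these SDs do not measure whether the order held within a library, which was not tested. The place of mt-Atp6 was the main difference: it took 6.82% to 9.39% of the member reads of a PANDORA-seq library and 17.5% to 54.8% of those of a traditional-seq library, with no overlap.

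Whether the level of a gene differed between genotypes was tested on read counts over all genes with edgeR's quasi-likelihood test, TMM normalization and Benjamini-Hochberg adjustment, where a gene was called if its fold change exceeded 2 and its adjusted p was below 0.05. In PANDORA-seq 0 of the 6 genes were called, where 0.0782% of the 23018 genes tested were. The log2 fold change of AD over WT was 0.38 ± 0.40 (SE) for mt-Co1, 0.12 ± 0.34 for mt-Co2, 0.02 ± 0.31 for mt-Co3, 0.06 ± 0.35 for mt-Atp6, 0.16 ± 0.34 for mt-Atp8 and 0.21 ± 0.38 for mt-Cytb. The adjusted p of edgeR ran from 0.715 (mt-Co1) to 0.987 (mt-Co3), no member had an unadjusted p under 0.05, and likewise 0 members were called by DESeq2. Every change was smaller than its own SE, with 95% intervals from -0.40 to 1.17 for mt-Co1 and from -0.59 to 0.63 for mt-Co3. Without AD replicate 7 that of mt-Co1 was 0.15, while those of mt-Co2, mt-Co3 and mt-Atp6 turned to -0.04, -0.10 and -0.08.

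In traditional-seq 0 of the 6 genes were called as well, where 0.0% of 4250 genes were (97 genes had an unadjusted p under 0.05, and the likelihood ratio test and DESeq2 called 2 genes each, neither a member). The log2 fold changes of the members ran from 0.04 ± 0.47 (SE, mt-Atp6) to 0.32 ± 0.36 (SE, mt-Atp8), again below their SEs. In bulk tissue, fewer cells of a type and less RNA per cell cannot be told apart. The difference between the protocols in the log2 ratio of AD over WT ran from -0.10 ± 0.44 (SE, mt-Co3) to 0.26 ± 0.54 (SE, mt-Co1) (edgeR, a test of the interaction chosen after the data were seen), and no adjusted p was below 0.999.

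The other genes of the pathway showed no call either. The 7 mitochondrial mRNAs of complex I had 0 calls in both protocols, with a median log2 fold change of 0.30 in PANDORA-seq, where the median of all genes was 0.04. Of 36 nuclear genes for complex III, complex IV, ATP synthase and cytochrome c, 35 were tested in PANDORA-seq with 0 calls and a median of -0.18, and 14 in traditional-seq with 0 calls and a median of -0.28. Of 12 genes for mitochondrial RNA handling, such as the transcription factor Tfam and the poly(A) polymerase Mtpap, 11 and 1 were tested, with 0 calls and medians of -0.16 and -0.05. Among markers, those of microglia had the median furthest from 0, 0.91 over 5 genes in PANDORA-seq, with 0 calls, and the summed level of the 5 ran from 7.43 to 21.03 RPM in WT and from 8.53 to 21.9 RPM in AD. The summed level of the 6 neuron markers ran from 290.3 to 1603 RPM in WT and from 197 to 1355 RPM in AD. The part of such markers in the members' values was not tested.

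The genes whose level followed the summed members most closely across the 16 PANDORA-seq libraries were mt-Nd4 (Pearson's r = 0.952 on log2(RPM + 1)), a set of 10 genes that share their reads and include AC123927.3 and Gm28268 (0.929), the mitochondrial large-subunit rRNA mt-Rnr2 (0.919), mt-Nd1 (0.894) and the isoleucine tRNA gene mt-Ti (0.891). The median r of the 23011 genes compared was 0.150 and their 99th percentile 0.745. These values share the libraries and their depth and are a description. Of the 5, 4 were mitochondrial genes.

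Between the protocols, all 6 genes were lower in PANDORA-seq relative to the other genes, where 8.09% of 17608 genes were called lower, 23.7% higher and 31.8% in either direction. The RPM above gives each gene's share of all reads, and the following values compare it with the bulk of other genes after TMM, over all 30 libraries with genotype as a covariate. mt-Atp6 changed most, with a log2 fold change of PANDORA-seq over traditional-seq of -5.12 ± 0.35 (SE, edgeR's quasi-likelihood test, adjusted p = 1.05e-14), which is 34.8-fold lower. mt-Atp8 followed with -3.36 ± 0.27 (SE), mt-Co3 with -2.97 ± 0.23, mt-Co2 with -2.57 ± 0.24, mt-Co1 with -2.54 ± 0.28 and mt-Cytb with -2.02 ± 0.25, all with an adjusted p of 2.58e-08 or less. The median of all genes was 0.38.

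The size of these changes depended on the scaling. With the library size alone, the median of all genes moved to 2.80, mt-Atp6 was at -3.03 and mt-Atp8 at -1.15 and both were still called, where 3.1% of genes were called lower, while mt-Co3 (-0.75), mt-Co2 (-0.39) and mt-Co1 (-0.27) were not, and mt-Cytb turned to 0.16. The 7 mitochondrial mRNAs of complex I were all called lower in PANDORA-seq under TMM, from -1.69 (mt-Nd3) to -2.48 (mt-Nd2). Of the 35 nuclear genes for complex III, complex IV, ATP synthase and cytochrome c tested, 17 were called higher and 1, Cox7c, lower. With the library size alone 0 of the 7 were called, and 5 of them turned, with values from -0.33 (mt-Nd2) to 0.45 (mt-Nd3). In that setting 34 of the 35 nuclear genes were called higher and 0 lower, where 16494 of all 17608 genes were called higher. Of the 11 genes for mitochondrial RNA handling 1, Mtpap, was called lower under TMM. All 11 were called higher with the library size alone, as were most of all genes.

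The fragments also differed in where they lay. Of the distinct member fragments, 56096 were seen in PANDORA-seq and 20907 in traditional-seq, and the 16171 seen in both were 28.8% of the former and 77.3% of the latter. These counts move with depth, which was higher in PANDORA-seq. By reads, the shared fragments held 56.5% of the member reads of PANDORA-seq and 94.9% of those of traditional-seq. The percentage of a gene's reads that starts at each position, summed over positions as the smaller of 2 profiles, gives their overlap. Between the 2 protocols it was 25.6% for mt-Atp6, 40.7% for mt-Co3, 41.4% for mt-Co1, 44.1% for mt-Co2, 45.98% for mt-Cytb and 62.3% for mt-Atp8. Between WT and AD it was 84.1% to 88.2% in PANDORA-seq and 86.6% to 92.3% in traditional-seq. For each gene the group profiles were thus closer between genotypes than between protocols. Between single libraries the median overlap was 70.6% to 73.7% within PANDORA-seq and 63.9% to 76.0% within traditional-seq, by gene. Across protocols it was 22.5% to 54.3%. Except for mt-Co3 the single pairs overlapped in range. For mt-Co1 they went down to 38.7% within PANDORA-seq and up to 48.6% across protocols.

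**Figure D2:**
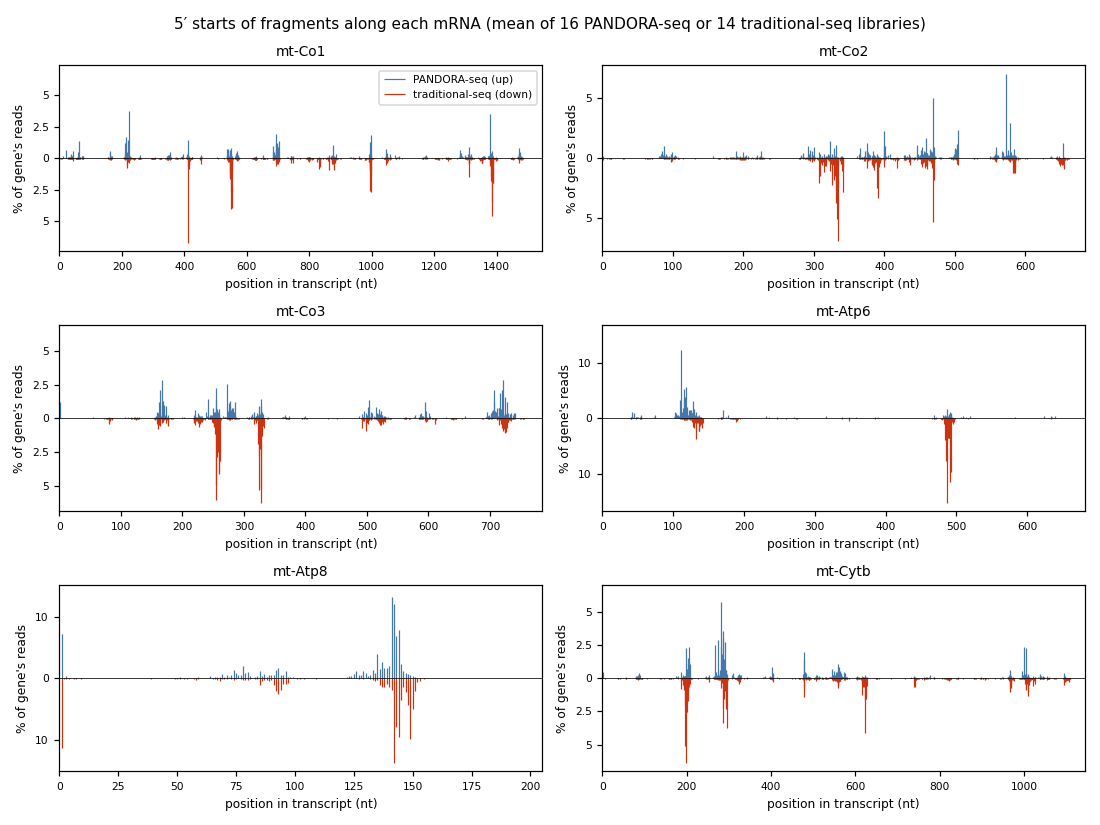
Percentage of a gene's reads that starts at each position of the transcript (nt), as the mean of 16 PANDORA-seq libraries (upward) and 14 traditional-seq libraries (downward), for the 6 genes. Starts gather in short stretches, and the leading stretch of mt-Atp6 is near base 111 in PANDORA-seq and near base 487 in traditional-seq.

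In PANDORA-seq the 10 leading start positions held 19.6% of the mt-Co1 reads, 26.4% of mt-Co2, 21.7% of mt-Co3, 42.4% of mt-Atp6, 59.9% of mt-Atp8 and 29.7% of mt-Cytb (means of 16 libraries). The leading start of mt-Atp6, base 111, took 12.2% ± 5.76 (SD, n = 16) of its reads, and 0.122% in traditional-seq. That of mt-Co2, base 573, took 7.06% ± 4.94 (SD, n = 16), and 0.0466% in traditional-seq, whereas base 469 of the same gene took 5.06% and 5.28% in the 2 protocols. Both protocols thus shared some starts and not others within the same mRNA.

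For most genes few fragments reached the ends of the annotated transcripts. Starts at the first base of the transcript were 0.0206% of the reads for mt-Co1 and 0.158% for mt-Co2 in PANDORA-seq, but 7.17% ± 3.66 (SD, n = 16) for mt-Atp8, which had 11.3% ± 4.91 (SD, n = 14) in traditional-seq. For mt-Co3, whose first base is the last base of mt-Atp6, starts at the first base were 1.23% ± 0.441 (SD, n = 16) of the reads in PANDORA-seq, 0.652% to 1.9596% in single libraries, and 0.0126% ± 0.0270 (SD, n = 14) in traditional-seq. Every PANDORA-seq library lay above every traditional-seq library in that share for mt-Co3. No read of either protocol ended at the last base of the annotated mt-Co1 transcript. Fragments that run on past an annotated end, as with added A, were outside the rule for members.

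A single 3′ end stood out in mt-Atp6. Fragments that ended at base 518 of mt-Atp6 (chrM position 8444) made up 53.4% ± 12.8 (SD, n = 14) of its traditional-seq reads, from 30.1% to 72.5%, and 0.222% ± 0.113 (SD, n = 16) of its PANDORA-seq reads. Their level was 67.9, 543 and 2069 RPM (lowest, median and highest) in traditional-seq and 0.0182, 0.341 and 0.679 RPM in PANDORA-seq, without overlap. This end was chosen as the leading one of traditional-seq, so its lower level in PANDORA-seq is a description. Base 145, the leading 3′ end of mt-Atp6 in PANDORA-seq, held 12.7% of its reads there and 0.239% in traditional-seq. It had 9.04 to 55.7 RPM in PANDORA-seq and 0.207 to 8.94 RPM in traditional-seq, also without overlap. The 5′ ends of the fragments that ended at base 518 varied over 23 positions in traditional-seq, and the 4 leading fragments are shown to make the shared end visible.
mt-Atp6 bases 487 to 518: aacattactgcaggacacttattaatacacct
mt-Atp6 bases 491 to 518: ttactgcaggacacttattaatacacct
mt-Atp6 bases 492 to 518: tactgcaggacacttattaatacacct
mt-Atp6 bases 486 to 518: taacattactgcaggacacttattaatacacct

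These 4 had means of 187, 130, 108 and 97.8 RPM in traditional-seq and held 24.3%, 16.9%, 13.9% and 12.7% of the reads at that end. Without all fragments that ended there, mt-Atp6 had 524 RPM ± 387 (SD, n = 14) in traditional-seq and 159 RPM ± 60.3 (SD, n = 16) in PANDORA-seq. Per kb that is 769 and 233 RPM, which in the former places it between mt-Co2 and mt-Co1, both counted with all their ends. Its mean in traditional-seq was still above that in PANDORA-seq. The libraries of the protocols now overlapped, with 156 to 1480 RPM in traditional-seq and 77.0 to 316 RPM in PANDORA-seq. In WT and AD traditional-seq the share of mt-Atp6 reads with that end was 51.7% ± 13.8 and 55.0% ± 12.5 (SD, n = 7 each), and the libraries of the genotypes overlapped. No other gene had a 3′ end with so large a share of its reads. The next were base 168 of mt-Atp8 with 23.3% ± 8.08 and base 283 of mt-Co3 with 16.1% ± 5.65 (SD, n = 14).

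**Figure D3:**
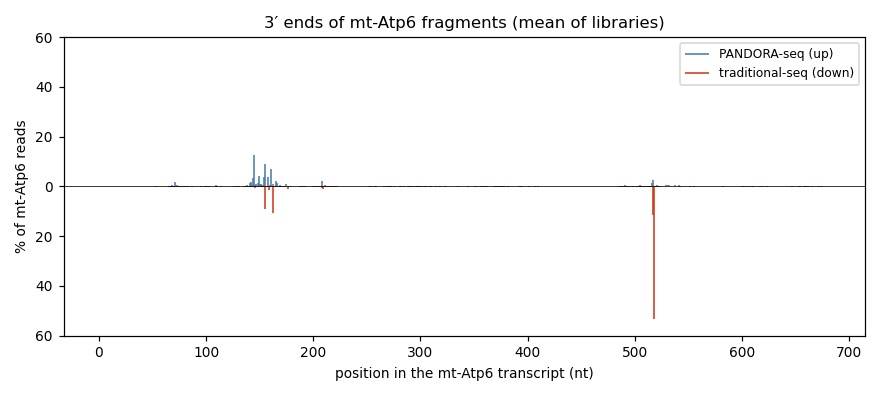
Percentage of mt-Atp6 reads that ends at each position of the transcript (nt), as the mean of 16 PANDORA-seq libraries (upward) and 14 traditional-seq libraries (downward). A single position, base 518, holds 53.4% of the traditional-seq reads and 0.222% of the PANDORA-seq reads.

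The bases at the fragment ends differed between the protocols as well. In PANDORA-seq 30.1% ± 13.7 (SD, n = 16) of the member reads that did not begin at the first base of a transcript began between a T and an A, where 9.55% of neighbouring bases in the transcripts are T then A, and in traditional-seq it was 13.9% ± 2.07 (SD, n = 14). By gene the PANDORA-seq share was 32.3% for mt-Co1, 33.5% for mt-Co2, 23.1% for mt-Co3, 25.4% for mt-Atp6, 23.6% for mt-Atp8 and 26.2% for mt-Cytb. The share varied widely between PANDORA-seq libraries, from 13.9% in AD replicate 1 to 66.6% in AD replicate 7, with 48.0% in AD replicate 3, and the genotypes overlapped, at 24.9% ± 8.36 in WT and 35.3% ± 16.5 in AD (SD, n = 8 each). Without AD replicate 7 the share was 27.7% ± 10.04 (SD, n = 15) in PANDORA-seq and 30.8% ± 11.5 (SD, n = 7) in AD. AD replicate 7 thus had both the highest member level and the highest share of starts between T and A, and AD replicate 3 had the lowest level and the second highest share.

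At the 3′ end the order was turned around. Ends between a T and an A were 3.19% ± 0.879 (SD, n = 16) of the member reads in PANDORA-seq and 28.9% ± 6.71 (SD, n = 14) in traditional-seq, and 12.6% ± 3.51 in the latter without the mt-Atp6 fragments that ended at base 518. The base that followed the fragment was T for 52.1% of PANDORA-seq reads and A for 50.8% of traditional-seq reads, where T is 29.8% and A 31.7% of the bases of the transcripts. By gene, the mean A share in traditional-seq was 73.7% for mt-Atp6, 72.4% for mt-Atp8, 46.7% for mt-Cytb and 43.8% for mt-Co1. For mt-Co2 it was 33.8%, as in its transcript, and for mt-Co3 27.4%, where C followed 38.1% of the reads. The libraries of the protocols did not overlap in 3′ ends between T and A, with 1.76% to 4.79% in PANDORA-seq and 21.7% to 44.3% in traditional-seq.

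Member fragments were longer in PANDORA-seq. The median length was 35.4 nt ± 1.21 (SD, n = 16 libraries) in PANDORA-seq and 27.2 nt ± 1.42 (SD, n = 14) in traditional-seq. The longest reads in the files are 45 nt in PANDORA-seq and 42 nt in traditional-seq. Reads of 20 to 30 nt were 24.2% ± 3.36 of the member reads in PANDORA-seq and 73.4% ± 9.36 in traditional-seq. Within PANDORA-seq the median was 36.2 nt ± 1.04 in WT and 34.6 nt ± 0.744 in AD (SD, n = 8 each), with library medians of 35 to 38 nt in WT and 34 to 36 nt in AD.

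**Figure D4:**
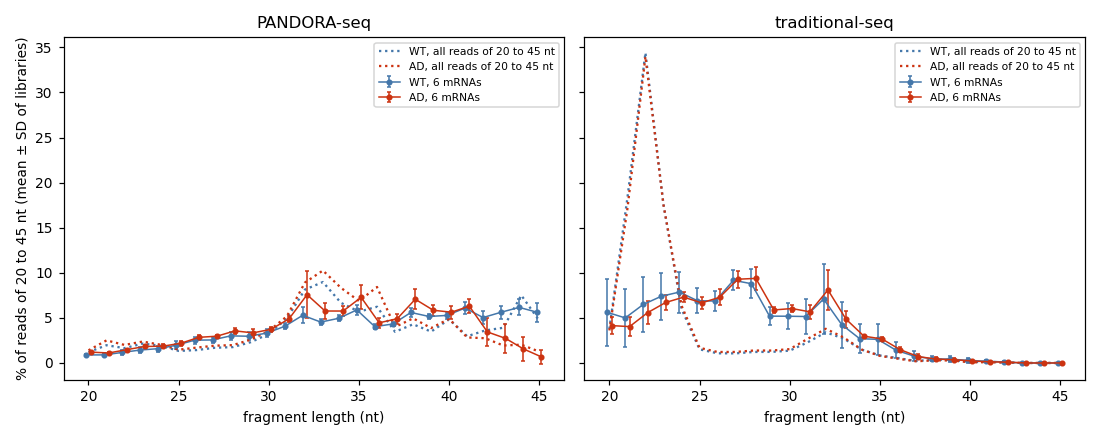
Percentage of reads of 20 to 45 nt at each length (nt), mean ± SD of the libraries of a genotype, for the 6 mRNAs (points and lines) and for all reads of 20 to 45 nt (dotted), in PANDORA-seq (left) and traditional-seq (right). In PANDORA-seq AD lies below WT at 43 to 45 nt for the members and for all reads alike.

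The genotypes differed in the longest fragments. Member fragments of 43 to 45 nt were 17.4% ± 2.56 (SD, n = 8) of the member reads of WT and 4.96% ± 3.61 (SD, n = 8) of those of AD PANDORA-seq libraries, with 13.5% to 21.9% in WT and 1.47% to 11.7% in AD and no overlap. The same shift was seen in all reads of 20 to 45 nt, of which 16.1% ± 3.26 in WT and 5.22% ± 3.10 in AD were 43 to 45 nt (SD, n = 8 each), from 11.8% to 22.4% in WT and from 2.20% to 11.3% in AD. The length of the members and that of all reads thus moved together.

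Each gene was then tested in 3 length classes beside the same classes of all other genes. mt-Co2 at 43 to 45 nt had 43.4, 90.0 and 105 RPM in WT and 2.48, 16.5 and 40.5 RPM in AD (lowest, median and highest). mt-Co3 had 39.4, 56.6 and 88.5 RPM in WT and 1.91, 15.8 and 25.4 RPM in AD. For both genes all 8 AD libraries lay below every WT library, which held for 8.81% of the 10782 genes tested at this length, not matched for level.

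mt-Co1 at 43 to 45 nt had 55.8, 127 and 186 RPM in WT and 6.23, 36.8 and 63.3 RPM in AD, with 7 AD libraries below every WT library. mt-Cytb had 14.3, 41.2 and 69.9 RPM in WT and 1.29, 10.6 and 18.6 RPM in AD, with 5. mt-Atp6 had 14.1, 35.0 and 49.7 RPM in WT and 1.001, 6.04 and 17.3 RPM in AD, with 6, and mt-Atp8 had 1.40, 2.48 and 4.41 RPM in WT and 0.0182, 0.540 and 1.42 RPM in AD, with 7. These 4 genes overlapped between genotypes only at the edge of their ranges.

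All 6 genes were called lower in AD at 43 to 45 nt, where 74.9% of the 10782 genes tested in that class were. Over the 3 classes together that is 6 of 18, where 19.0% of 45344 genes by class were called, 17.9% lower and 1.14% higher. The log2 fold change ran from -1.64 ± 0.43 (SE, mt-Co1, adjusted p = 0.00744 by edgeR's quasi-likelihood test) to -1.99 ± 0.51 (SE, mt-Co2, adjusted p = 0.00702), with -1.79 ± 0.40 for mt-Co3, -1.93 ± 0.52 for mt-Atp6, -1.82 ± 0.55 for mt-Atp8 and -1.82 ± 0.48 for mt-Cytb. The median of all genes in the class was -1.56. At 20 to 30 nt 0 of 6 were called lower, where 0.0256% of genes were, and the log2 fold changes ran from 0.29 to 0.54. At 31 to 42 nt 0 of 6 were called lower, where 0.106% of genes were, and they ran from 0.23 to 0.59.

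With each class fitted alone, a setting chosen after the data were seen, 0 of the 6 genes were called at 43 to 45 nt, where 6.28% of 11210 genes were, and their log2 fold changes ran from -0.08 (mt-Co1) to -0.59 (mt-Co2). A count of 0 of 6 is near what that share gives. The call of mt-Atp8 at 43 to 45 nt was lost without WT replicate 8 (-1.35) and without AD replicate 2 (-1.65).

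**Figure D5:**
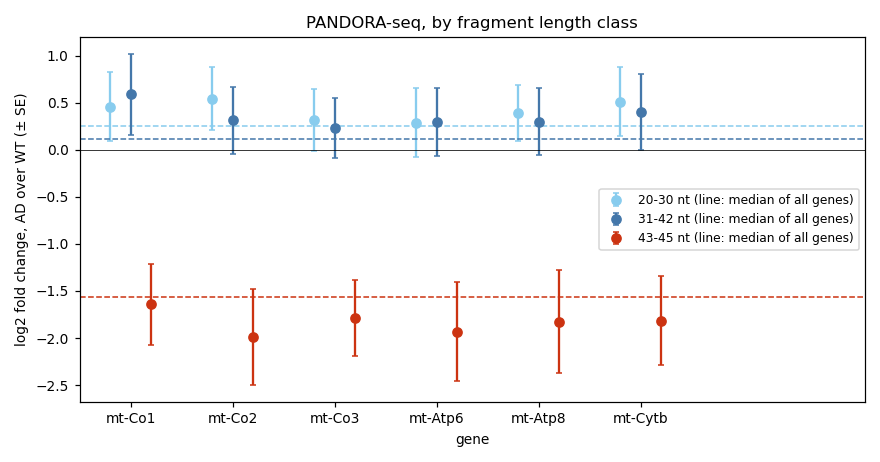
Log2 fold change of AD over WT in PANDORA-seq (± SE of the fit, 8 WT and 8 AD libraries) for each gene in 3 length classes, with dashed lines at the median of all genes in the class. All 6 genes lie between -1.64 and -1.99 at 43 to 45 nt, near the median of -1.56, and above 0 in the shorter classes.

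Single sequences gave the same picture. Of the member sequences, 2775 passed the filter on low counts in PANDORA-seq and 69 were called, 1 higher and 68 lower in AD, where 2.75% of 76107 sequences were called, 2.68% lower and 0.0683% higher. All 68 that were lower had 43 to 45 nt, 45 of them 45 nt, and were 26.5% of the 257 member sequences of that length tested, where 25.5% of 7800 sequences of that length were. Of the 686 member sequences of 20 to 30 nt and the 1832 of 31 to 42 nt, 0 were lower, where 0.04% and 0.0869% of all sequences of these lengths were. By gene, 26 of 608 sequences were lower for mt-Co2, 19 of 1216 for mt-Co1, 15 of 438 for mt-Co3, 5 of 283 for mt-Cytb, 3 of 211 for mt-Atp6 and 0 of 19 for mt-Atp8. The count of called member sequences rose to 169, 155 and 165 without AD replicate 1, 5 or 6. The share of all sequences called in those fits is not given here, so the rise cannot be read as particular to the members.

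The sequence with the smallest adjusted p of each gene is shown, to set its ends beside those of the abundant fragments above.
mt-Co1 bases 209 to 253, chrM:5536-5580: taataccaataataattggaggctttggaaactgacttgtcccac
mt-Co2 bases 401 to 445, chrM:7413-7457: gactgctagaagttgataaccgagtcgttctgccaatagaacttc
mt-Co3 bases 278 to 322, chrM:8884-8928: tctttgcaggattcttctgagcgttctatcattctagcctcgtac
mt-Atp6 bases 111 to 155, chrM:8037-8081: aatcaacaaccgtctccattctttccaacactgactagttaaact
mt-Cytb bases 198 to 242, chrM:14342-14386: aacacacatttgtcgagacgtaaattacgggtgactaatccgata

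The mt-Atp6 sequence began at base 111, the leading start of that gene in PANDORA-seq, and the mt-Co1 sequence ended at base 253, the leading 3′ end of mt-Co1 in PANDORA-seq but not in traditional-seq, where base 572 led. The mt-Co2 sequence had 1.47, 2.53 and 5.19 RPM in WT and 0, 0.0563 and 0.449 RPM in AD (log2 fold change -4.33 ± 0.75 SE, adjusted p = 0.000427 by edgeR). The mt-Co3 sequence had 0.246, 0.408 and 0.609 RPM in WT and 0, 0.0108 and 0.0486 RPM in AD (-4.46 ± 0.72 SE, adjusted p = 0.000184 by edgeR). In both, every AD library lay below every WT library. They were chosen for their small p, and the share of all sequences without overlap was not counted, so this is a description. The mt-Co1 sequence had 0.121 RPM in the highest AD and 0.123 RPM in the lowest WT library. The mt-Cytb sequence overlapped, with 0.437 RPM in the highest AD and 0.400 RPM in the lowest WT library.

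The mt-Atp6 sequence had 1.66, 3.12 and 17.6 RPM in WT and 0.118, 0.364 and 2.13 RPM in AD, with only AD replicate 6 above the lowest WT library (-3.06 ± 0.66 SE, adjusted p = 0.00427 by edgeR). Its shorter form of 35 nt with the same start, printed above, had 3.596, 7.34 and 13.1 RPM in WT and 5.11, 6.98 and 35.5 RPM in AD and was not called. The 45-nt sequence was chosen for its small p, and the difference between the pair was not tested. The mt-Co1 sequence fell by 4.27 ± 0.73 and the mt-Cytb sequence by 3.72 ± 0.71 (log2 fold change and SE, adjusted p = 0.000398 and 0.00129 by edgeR).

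The quasi-likelihood test called 1 member sequence higher in AD, a 26-nt fragment of mt-Co1, while the likelihood ratio test called 24 higher (0.463% of all sequences) and the loose filter on low counts, at least 10 reads over the libraries, gave 28 (0.103% of all). It is shown as the exception among the 69.
mt-Co1 bases 63 to 88, chrM:5390-5415: attcggagcctgagcgggaatagtgg

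It had 0.0218, 0.0727 and 0.231 RPM in WT, from 61 reads in all, and 0.0847, 0.213 and 1.74 RPM in AD, from 251 reads, of which AD replicate 7 held 143. The genotypes overlapped, and the log2 fold change was 2.42 ± 0.66 (SE, adjusted p = 0.0321 by edgeR), or 1.57 with the call lost without AD replicate 7. The call was also lost without each of 5 WT libraries. In traditional-seq 0 of the 433 member sequences tested were called, where 0.0% of 4877 sequences were, 0 of them by the likelihood ratio test as well, and 22 sequences, none of them a member, had an unadjusted p under 0.05.

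The nuclear genome holds copies of these mRNAs, and a short read cannot tell them apart where the sequence is the same. In PANDORA-seq 100% of the mt-Co2 reads and nearly all reads of mt-Co3 and mt-Atp6 also matched a nuclear transcript in the annotation exactly, such as Gm28661 (mt-Co2), Gm28437 (mt-Co3) and Gm10925 (mt-Atp6), 3 neighbouring pseudogenes on chromosome 1. For mt-Co1 it was 42.8% of the reads in PANDORA-seq and 74.8% in traditional-seq, for mt-Cytb 1.78% and 4.57%, and for mt-Atp8 under 0.1% in both. The levels of mt-Co2, mt-Co3 and mt-Atp6 therefore cannot be told apart from those of their copies, whereas few reads of mt-Atp8 and mt-Cytb could come from an annotated copy.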

How the data were processed

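Small RNA of 15 to 50 nt from the prefrontal cortex of 6-month-old mice was sequenced in 30 libraries. The authors deposited, for each library, the distinct sequences left once adapters were cut off, each with a length and a read count, and no annotation and no normalization. The submitters' processing notes name the genome build mm39, which was not used here. Their annotation with SPORTS1.1 was not used either.

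Each sequence of 20 to 45 nt was matched exactly, in sense and over its whole length to the GENCODE M21 transcripts, and coordinates come from that match on GRCm38. A sequence that matched several genes was counted once, with mitochondrial tRNAs and rRNAs first, then mitochondrial mRNAs, then small noncoding RNAs and then all others, and as a set of genes where several of the same rank matched. RPM use all reads of the library. Counts as deposited, summed per gene, per gene and length class or per sequence, went into edgeR 4.0.16, run under R 4.3.3 (TMM, filterByExpr with its defaults, quasi-likelihood test, Benjamini-Hochberg adjustment over all features tested). Other than members, sequences with fewer than 10 reads over all libraries were left out of the sequence tables. DESeq2 1.42.0, the likelihood ratio test, other scalings and filters, a replicate block and leaving out each library were tried as alternatives. The matching and the fits were tested on simulated data.

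The reads carry no molecular identifiers, so limits from counts cover counting error only, and a count of 0 allows up to 3 reads. The members and the gene lists were chosen with earlier results of these data known. Named were all 6 genes, the most abundant fragment and start of each gene and protocol, the called sequence with the smallest adjusted p per gene and direction, and the 5 genes most like the summed members. Of the WT and AD libraries with the same replicate number, 6 of 8 pairs in PANDORA-seq and 2 of 7 in traditional-seq deviated together with a correlation over 0.1 (range -0.506 to 0.631 and -0.232 to 0.440). Since not every pair did, the numbers were not used as pairs. No 2 libraries of a group agreed within sampling noise.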

Additional observations from a re-analysis of the deposited data

Results flagged for a closer look

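In 32 groups of libraries the gap between an extreme library and the next was set against the range of the group. Of these groups, 10 held a library that stood apart. Chance gives about 1 in 20 only for independent groups with a normal spread. These groups hold the same libraries for several genes and for their sum, so the 10 cannot be set against that rate. AD PANDORA-seq replicate 7 stood above the rest of its group for mt-Co1 (2475 RPM, the next 1251), mt-Co2 (885, the next 488), mt-Atp6 (316, the next 184) and the 6 genes together (4636, the next 2575). WT traditional-seq replicate 5 did so for mt-Co1 (2671 RPM, the next 1075), mt-Co2 (1459, the next 571), mt-Co3 (1123, the next 543) and mt-Cytb (488, the next 209). AD traditional-seq replicate 7 did so for mt-Co1 (2268 RPM, the next 1134) and mt-Co2 (1251, the next 654). In each of these the library was the highest of its group.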

How the results depend on the processing

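The counts of 0 called genes between genotypes held in both protocols under every alternative that was run. Between protocols 6 of 6 genes were called, all lower in PANDORA-seq. With the library size alone 2 of 6 were called, both lower, where 3.1% of all genes were called lower and 96.8% in either direction. In that setting mt-Cytb turned to 0.16. With sequences that also match a nuclear transcript left out, 3 of the 3 still tested were called (31.8% of all). Of the length classes 6 of 18 were called, 3 of the 9 still tested with those sequences left out (19.0% of all), and 0 with each class fitted alone, with TMM or with all reads of that length as library size (1.54% and 0.6% of all, both chosen after seeing the data). Called member sequences in PANDORA-seq numbered 69 of 2775, 119 of 2775 by the likelihood ratio test (4.3% of all sequences) and 549 of 22845 with the loose filter of at least 10 reads (1.41% of all). The members' share was 0.776% of the reads matched to transcripts in PANDORA-seq and 0.777% in traditional-seq. Without those sequences it was 0.0750% and 0.04999% of all reads, which turned the order of the protocols. That setting left out every mt-Co2 read and nearly all reads of mt-Co3 and mt-Atp6. In PANDORA-seq genotype changes near 0 turned with the library size alone (mt-Atp6 -0.14, mt-Co2 -0.0797, mt-Co3 -0.18), with the loose filter (mt-Atp6 -0.00468, mt-Co3 -0.0438) and with no filter (mt-Co3 -0.0171), and in classes fitted alone with the length's own library size (mt-Atp6 -0.0408 at 20 to 30 nt and -0.0821 at 31 to 42 nt, mt-Co2 -0.07 at 31 to 42 nt, mt-Co3 -0.042 and -0.14). Without 1 library, called sequences ranged from 55 to 169, called length classes from 5 to 6, called genes from 0 to 0 within each protocol and from 6 to 6 between protocols, and the changes of mt-Atp6 from -0.0848 to 0.32, of mt-Co2 from -0.0382 to 0.36 and of mt-Co3 from -0.10 to 0.23 in PANDORA-seq, and of mt-Atp6 from -0.13 to 0.44 and of mt-Co1 from -0.00815 to 0.35 in traditional-seq. The cause was not tested. For the sequences and length classes called without 1 library, the shares over all features are not given here, so their ranges cannot be read as particular to the members. Over all genes tested, 18 were called between genotypes in PANDORA-seq, 135 by the likelihood ratio test, 149 by DESeq2, 61 with the library size alone, 40 with the loose filter, 761 with no filter and 0 with reads of 20 to 40 nt only. Between protocols 4180 were called higher and 1425 lower, against 16494 and 546 with the library size alone. With the replicate number as a block 0 genes, 6 length classes and 100 sequences were called in PANDORA-seq (0.117%, 18.8% and 3.28% of all), and 0 in traditional-seq, where 2 of 8 and 0 of 7 WT libraries matched the AD library of their own number best. With a block for the 14 codes that both protocols share in their file names, 6 of 6 genes were called between protocols (29.3% of all). In traditional-seq, with fewer reads and none over 42 nt, 433 member sequences passed the filter, against 2775 in PANDORA-seq.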

Other observations

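A few reads ran across the junction of mt-Atp6 and mt-Co3, which meet at chrM position 8607, with at least 5 bases on either side. They numbered 48 in 8 of 8 WT and 63 in 7 of 8 AD PANDORA-seq libraries, and 0 in WT and 2 in AD traditional-seq libraries. Fragments of the 3′ end of mt-Co3 followed by at least 5 A, outside the rule for members, numbered 29 reads in WT and 21 in AD PANDORA-seq and 62 in WT and 44 in AD traditional-seq, which is a mean of 0.0430, 0.0313, 0.752 and 0.556 RPM.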
